A study of Mus musculus with 8 samples.

Results

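Slc8a1 encodes NCX1, the sodium-calcium exchanger of the plasma membrane. Its linear RNA and its circular RNA were followed after cisplatin, a chemotherapy drug toxic to the kidney. Male C57BL/6 mice received 30 mg/kg intraperitoneally, and proximal tubules were isolated from the renal cortex. The groups were 0 h, 24 h, 48 h and 72 h after cisplatin, with 2 libraries each. The 0 h group served as the control, and its own label names a time but no injection. Libraries carry the letters a and b in the deposited tables, which match no replicate number of the labels. The duplicates are called biological, with no word on whether they came from separate mice, so every error below covers only the spread between these libraries.

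The gene was found by position and identifier. Of 21874 gene rows, 1 maps to Slc8a1 (ENSMUSG00000054640), and of 2163 circRNAs, 1 lies inside the gene. No other back-splice of the table overlaps the gene. The linear row runs from 81373032 to 81671745 on the minus strand of chromosome 17 (mm10), over a gene model of 18774 bases. The circle joins positions 81647809 and 81649638, a span of 1830 bases counted with both ends, which lies inside that row and 22107 bases from its 5′ end. RefSeq places the gene at 81373105 to 81738387, so the row stops 66642 bases short of the outermost start that RefSeq lists. Exon boundaries and the sequence of the circle were not used here. Slc8a1 was picked with its linear and circular levels over the 4 times in view. Its levels and differences are therefore given as a description, without a test.

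NCX1 moves calcium out of the cell against an inward flow of sodium, and so depends on the sodium gradient that the sodium pump maintains. In the kidney it is best known from the basolateral membrane of the distal convoluted and connecting tubule, where it completes transcellular calcium reabsorption. The gene is also a textbook source of circular RNA: its exon 2, a large exon that holds the start of the coding sequence, is joined end to start by back-splicing, and a circle of this exon was described in monkey kidney cells. A circular RNA has no free ends for exonucleases to act on, and circular RNAs are in general longer lived than linear transcripts.

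Up to 48 h the circle differed from its 0 h level by less than the spread between duplicates, while the linear RNA was already far below its level at 0 h. In FPKM, fragments scaled to the length of the gene model and to the mapped fragments of the library, the linear row stood at 64.8 and 66.3 in 0 h libraries a and b. The 24 h pair had 10.9 and 10.5 FPKM, the 48 h pair 7.34 and 7.39, and the 72 h pair 11.5 and 16.1. All libraries after cisplatin lay at or below 16.1 FPKM, far under both 0 h libraries, and the duplicates lay close together except at 72 h. The circle had 627 and 735 back-splice reads in the 0 h pair, 809 and 745 in the 24 h pair, 863 and 819 in the 48 h pair, and 378 and 373 in the 72 h pair. A back-splice read is one that crosses the junction closing the circle. The 72 h libraries had the lowest counts, and the others lay between 627 and 863.

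**Figure D1:**
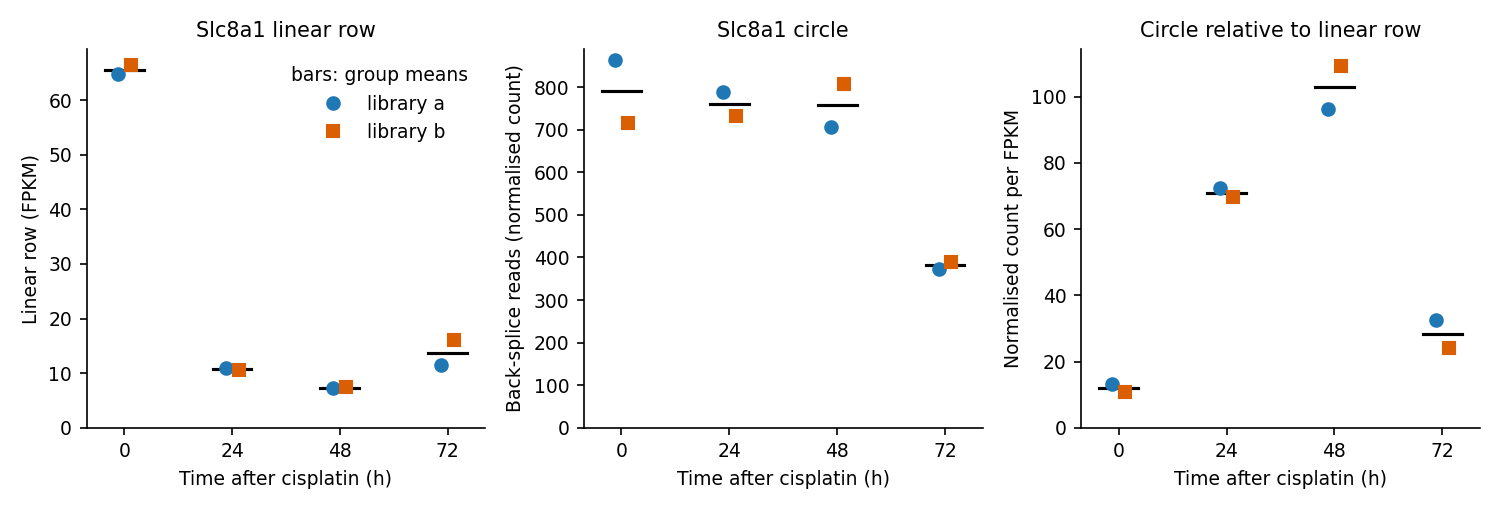
Slc8a1 by library against time after cisplatin (h): the linear row in FPKM (left), the circle as normalised count (middle) and normalised count per FPKM (right), with points for libraries a and b and bars for group means. The linear row is low from 24 h on, with a mean of 10.7 FPKM against 65.5 at 0 h, while the circle is low only in the 72 h libraries, and the circle relative to the linear row is highest at 48 h, with a mean of 102.8.

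Set against library size, the 72 h libraries were again the lowest, but the raw counts' stepwise order up to 48 h was not kept. Normalised counts (counts divided by each library's relative size by TMM, a trimmed mean of the circRNAs' ratios) were 864 and 716 for 0 h, 788 and 733 for 24 h, 706 and 808 for 48 h, and 373 and 390 for 72 h. The 24 h and 48 h libraries overlapped with those of 0 h, and both 72 h libraries lay below all others. The group means were 790 ± 105 (0 h), 761 ± 39.1 (24 h), 757 ± 72.2 (48 h) and 382 ± 11.8 (72 h; SD, n = 2 each). On the log2 scale of the normalised count plus 1, the difference from 0 h was -0.05 ± 0.13 at 24 h, -0.06 ± 0.13 at 48 h and -1.04 ± 0.13 at 72 h (SE from the spread within the 4 groups). The first pair of differences was smaller than that spread, and the last was several times larger. Between 72 h and 48 h the circle differed by -0.98 ± 0.13.

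As background, edgeR's quasi-likelihood test with Benjamini-Hochberg adjustment called few of the 1574 circRNAs tested against 0 h. The share called was 1.78% at 24 h (1.08% higher, 0.699% lower), 1.27% at 48 h (0.826% higher, 0.445% lower) and 1.21% at 72 h (0.254% higher, 0.953% lower). Those shares describe the table and carry no support for Slc8a1, which was chosen from it.

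The linear row was low early and came back in part. Its mean level was 65.5 ± 1.12 FPKM (0 h), 10.7 ± 0.275 (24 h), 7.36 ± 0.0333 (48 h) and 13.8 ± 3.29 (72 h; SD, n = 2 each). The means after cisplatin were 16.3%, 11.2% and 21.0% of the 0 h mean. On the log2(FPKM + 1) scale of the limma fit, which understates changes of low rows, the differences from 0 h were -2.51, -2.99 and -2.19, each ± 0.13 (SE). The order of the levels was 0 h, 72 h, 24 h, 48 h from high to low. The 72 h and 24 h groups did not overlap, but the gap between them was smaller than the spread between the 72 h libraries. The 24 h and 48 h groups stood further apart than their spread, by 0.49 on the log2 scale. How far the linear RNA had come back at 72 h depended on the library, with log2 differences from 0 h of -2.42 without library b and -1.96 without library a.

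Few rows stood as far below their 0 h level. At 24 h only 17 of 10757 tested rows, Slc8a1 included, had a log2 difference from 0 h as low as that of Slc8a1, and at 48 h only 25. At 72 h there were 237. By FPKM the row ranked 903 and 893 of all rows in the 0 h pair, 3922 and 3861 in the 24 h pair, 4903 and 4880 in the 48 h pair, and 3979 and 3016 in the 72 h pair. The median over all tested rows was -0.12 at 24 h, -0.13 at 48 h and 0.07 at 72 h. After scaling every library to 1 common median, the Slc8a1 differences were -2.37, -2.81 and -2.19.

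The circle relative to the linear row was highest at 48 h. The normalised count per FPKM was 13.3 and 10.8 in the 0 h pair, 72.3 and 69.7 in the 24 h pair, 96.2 and 109 in the 48 h pair, and 32.6 and 24.2 in the 72 h pair. No 2 time groups overlapped, and both 72 h libraries still lay above both 0 h libraries. This ratio has no absolute meaning, since a junction count and an FPKM value differ in unit, and only its course over time can be followed. That course also depends on the scaling. The circle was scaled to the circRNA reads of a library and the row to its mapped fragments. A shift over time in the share of circRNA reads would move the ratio too, which was not tested. The ratio was 5.89 times the 0 h mean at 24 h, 8.51 times at 48 h and 2.35 times at 72 h. On the log2 scale, as the circle minus the linear row, the differences from 0 h were 2.46, 2.93 and 1.15, each ± 0.19 (SE), and between 72 h and 48 h -1.79 ± 0.19.

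The FPKM row covers the span of the circle, which equals 9.75% of the length of the gene model. The sources used here do not say whether fragments from the circle were counted into the row, and the FPKM values cannot be split into the linear transcript and the circle. In a bulk isolate, fewer cells of a type and less RNA per cell cannot be told apart, for the linear RNA and for the circle alike.

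**Figure D2:**
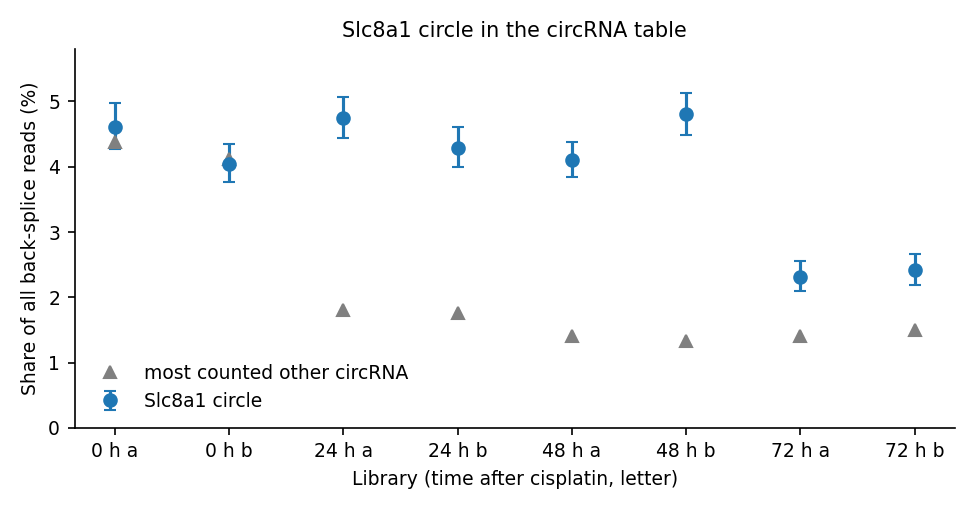
Share of all back-splice reads (%) taken by the Slc8a1 circle in each of the 8 libraries, with 95% Wilson intervals, beside the most counted other circRNA of that library. The circle takes 4.04% to 4.80% in the 6 libraries up to 48 h and 2.32% and 2.41% at 72 h, and only in 0 h library b does another circRNA exceed it.

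The Slc8a1 circle was the most counted circRNA of the table, with 5349 of 136024 back-splice reads over the 8 libraries, or 3.93%. It ranked 1 in 7 libraries and 2 in 0 h library b. There a back-splice on chromosome 15 (9311749 to 9365377), which lies inside no single protein-coding gene, was ahead, with 735 reads for Slc8a1 against 748. That other circRNA had 276 and 305 reads in the 24 h pair, and 62 and 69 in the 72 h pair, so that from 24 h on the Slc8a1 circle stood well ahead of the rest. Its count was 2.62 and 2.44 times that of the next circRNA in the 24 h pair, 2.92 and 3.62 times in the 48 h pair, and 1.65 and 1.61 times in the 72 h pair. The next circRNA was one of Gigyf2, a regulator of translation, in 24 h library a and both 72 h libraries, and one of the lysine-degrading enzyme gene Aass in both 48 h libraries.

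As a share of all back-splice reads, with Wilson intervals of 95% that cover counting error only, the circle had 4.61% (4.27 to 4.97) and 4.04% (3.77 to 4.34) in the 0 h pair. In the 24 h pair it had 4.74% (4.43 to 5.07) and 4.29% (4.00 to 4.61). At 48 h it had 4.10% (3.84 to 4.38) and 4.80% (4.49 to 5.14), and at 72 h 2.32% (2.10 to 2.56) and 2.41% (2.18 to 2.67). The intervals of the 48 h duplicates did not overlap, so libraries of 1 group could differ by more than counting error. Even so, the upper bounds at 72 h lay below the lower bounds of every other library. These shares rest on 13603 to 21024 back-splice reads per library.

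Slc8a1 gave its many back-splice reads from 1 junction. Of 1203 genes that held a circRNA of the table, 835 held exactly 1, and the most for a gene was 11. Among the genes with exactly 1, Slc8a1 had 5349 reads in total against 1957 for the next. Its span was short beside a median of 7810 bases over all circRNAs, with 458 of 2163 spanning no more than 1830 bases. Of the 493 circRNAs under 2000 bases it had the highest total, and the next had 1010 reads. The span of 1830 bases is a multiple of 3, the length of a codon.

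Against other circRNAs and their host genes, Slc8a1 lay at the edge at 24 and 48 h. A circRNA was set beside the linear row of its gene where it lay inside 1 protein-coding gene, had a mean count of at least 20 and a tested row, which gave 159 circRNAs of 134 genes; circRNAs of 1 gene share their row. The difference between circle and linear row (log2, against 0 h) had a median of 0.16 at 24 h, 0.21 at 48 h and -0.11 at 72 h over these pairs. Slc8a1, at 2.46, 2.93 and 1.15, ranked 1 of 159 at 24 h, 1 at 48 h and 8 at 72 h. The next at 24 h was a circRNA of the GTPase-activating protein gene Arhgap5 (1.96), where the circRNA was higher by 2.38 and the row by 0.43. At 48 h the next was one of Nr1h4, the bile acid receptor FXR (1.85). No test was made of these ranks.

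**Figure D3:**
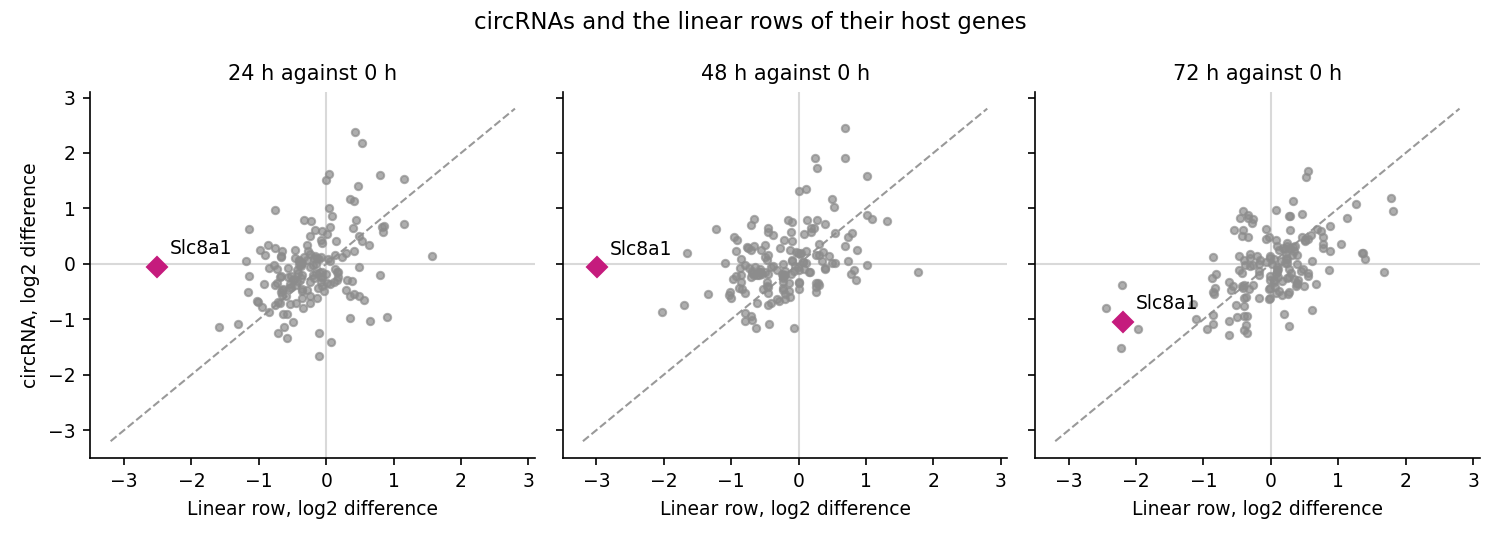
log2 difference from 0 h of 159 circRNAs (vertical axis) against that of the linear rows of their host genes (horizontal axis) at 24, 48 and 72 h; the dashed line marks equal differences. Slc8a1 (diamond) lies furthest left at 24 and 48 h, at -2.51 and -2.99 on the linear axis and near 0 on the circular axis, and at 72 h at -2.19 and -1.04.

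A halved linear row did not always leave the circle in place. At 24 h the linear rows of 9 of the 159 pairs stood at least 1 log2 unit below 0 h, and the median difference of their circRNAs was -0.50. The circRNAs of 3 of the 9 lay within 0.25 of their 0 h level. They were those of Slc8a1, of the sorting nexin gene Snx29 (0.05 against -1.19 for its row) and of Tbck (-0.23 against -1.14). At 48 h there were again 9, with a median of -0.51 and 3 within 0.25, those of Slc8a1, Snx29 and the potassium channel gene Kcnq1. By contrast, the Aass circRNA and its row were both lower, by -1.14 and -1.59 at 24 h and by -0.88 and -2.02 at 48 h. At 72 h, 7 rows were that low, and none of their circRNAs was within 0.25. Of these, Slc8a1, Snx29 and Aass had circRNAs at -1.04, -0.80 and -1.51. The circRNAs of Snx29, Tbck and Kcnq1 had mean counts of 22.4, 20.6 and 27.8 reads, against 669 for Slc8a1. At such low counts a place within 0.25 is uncertain. Over all 159 pairs the median difference of the circRNAs was -0.16 at 24 h, -0.06 at 48 h and -0.09 at 72 h. The share of all pairs within 0.25 was not counted. The counts within 0.25 are therefore no result about halved rows.

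The circRNAs whose course was most like that of the Slc8a1 circle came from Tcf20, a transcriptional coregulator gene. Over the 8 libraries and 186 other circRNAs with a mean count of at least 20, Pearson's r of the log2 normalised count was 0.980 for the Tcf20 circRNA at 82851513 to 82857284 on chromosome 15 and 0.968 for the one at 82825231 to 82857284, which shares an end with it. The median r was 0.0301, the compared circRNAs share the 8 libraries and their size factors, and no p is given. The shorter of the Tcf20 pair had 78 and 104 reads in the 0 h pair, 95 and 96 in the 24 h pair, 114 and 123 in the 48 h pair, and 44 and 41 in the 72 h pair. Like the Slc8a1 circle it was low only at 72 h. Its host row did not have the early drop of Slc8a1, with a mean of 26.6 FPKM (0 h), 23.8 (24 h), 28.1 (48 h) and 20.7 (72 h); limma called it lower only at 72 h (adjusted p = 0.0051). Next came a circRNA on chromosome 4 (96583977 to 96658752) inside no single protein-coding gene, with an r of 0.873. Those of the microtubule-associated gene Mtus1 and of the p53 cofactor gene Ppp1r13b followed at 0.852 and 0.836. Unlike the Slc8a1 circle, the circRNA on chromosome 4 was already lower at 24 h. Its mean normalised counts were 381 (0 h), 187 (24 h), 99.6 (48 h) and 28.6 (72 h).

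**Figure D4:**
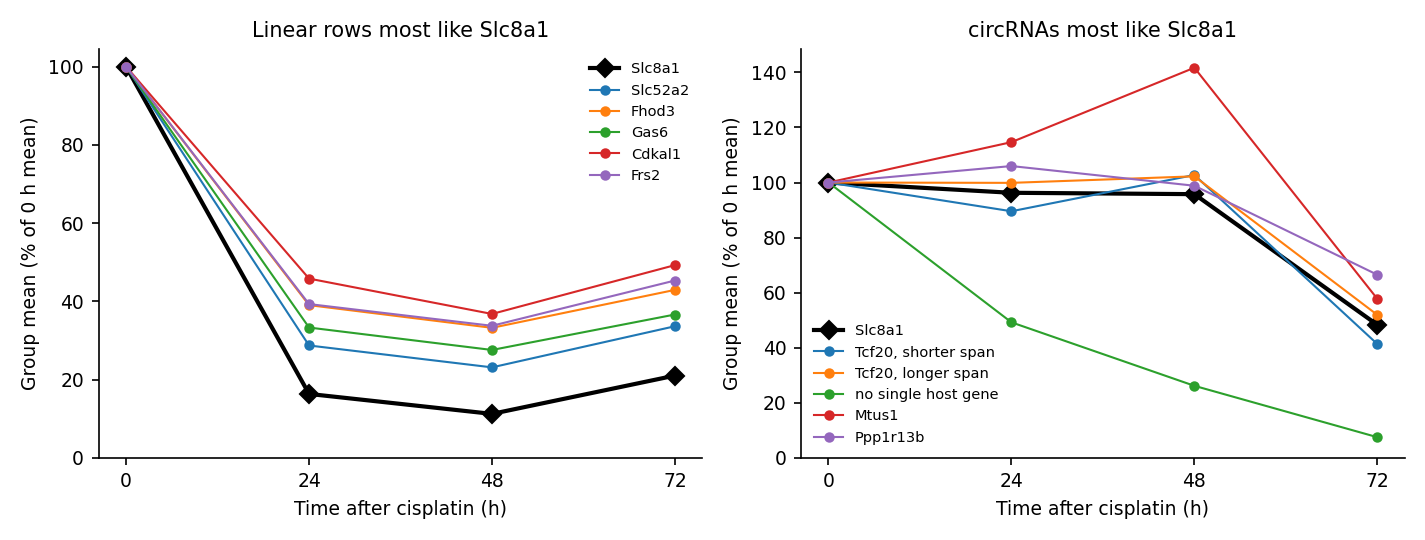
Group means as a percentage of the 0 h mean over time after cisplatin (h), for Slc8a1 (black) and the 5 linear rows (left) and 5 circRNAs (right) with the highest Pearson's r to it over 8 libraries. The Slc8a1 row lies lowest among the linear rows, at 16.3%, 11.2% and 21.0%, and the Slc8a1 circle stays near 100% until 48 h and stands at 48.3% at 72 h.

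The linear rows most like that of Slc8a1 were those of the riboflavin transporter gene Slc52a2, the formin gene Fhod3 and Gas6, the ligand of the TAM receptor kinases, with an r of 0.997, 0.996 and 0.996. Cdkal1, a tRNA-modifying enzyme gene whose row also spans 37 other protein-coding genes, and Frs2, the adaptor of fibroblast growth factor receptors whose row overlaps 4 others, followed with 0.995 each. The rows of Slc52a2, Fhod3 and Gas6 each overlap 1 other protein-coding gene. Of 9970 rows compared, 755 had an r of at least 0.95, with a median of 0.241 over all, so many rows had a course like this one. Gas6 averaged 119.6 FPKM (0 h), 39.8 (24 h), 33.0 (48 h) and 43.8 (72 h). Slc52a2 averaged 18.9, 5.43, 4.38 and 6.37 FPKM over the same times. In both the ratio to 0 h lay nearer to 1 than that of Slc8a1.

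Along chromosome 17, the nearest rows did not all move with Slc8a1. Thumpd2, a methyltransferase gene at 81024584 to 81065287, averaged 2.02 FPKM (0 h), 2.11 (24 h), 2.20 (48 h) and 2.36 (72 h), and was not called at any time (limma adjusted p from 0.397 to 0.811). Tmem178, which encodes a membrane protein of the endoplasmic reticulum and lies beyond Thumpd2 at 80944551 to 81002151, averaged 25.6, 6.67, 6.13 and 8.05 FPKM and fell at all 3 later times (limma adjusted p from 1.2e-06 to 3.7e-06). Farther out on that side, the row of Hnrnpll, which overlaps several other protein-coding genes, averaged 32.5, 30.9, 37.0 and 45.2 FPKM and rose at 72 h only (limma adjusted p = 0.0014). On the other side, Pkdcc at 83215300 to 83226223 averaged 3.05, 3.05, 3.69 and 4.01 FPKM and was not called (limma adjusted p from 0.128 to 0.947). Beyond it Eml4, a microtubule-binding protein gene, rose at all 3 later times, with 3.09, 4.29, 5.64 and 8.07 FPKM (limma adjusted p from 1.2e-05 to 0.013). Gm11096, whose row lies inside that of Slc8a1, and Gm6594 were listed at 0 in all libraries.

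The relatives of NCX1 were scarce in these tubules. Of 8 other exchangers of the Slc8 and Slc24 families, all with a row, 7 failed the filter of at least 1 FPKM in at least 2 libraries, and none of the 7 exceeded 0.403 FPKM in any library. Slc8a2 and Slc8a3, which encode NCX2 and NCX3, averaged 0.0227 and 0.0446 FPKM at 0 h. On this per-length scale Slc8a1 was the leading sodium-calcium exchanger at every time. The exception to the filter was Slc8b1, the sodium-calcium exchanger of mitochondria, in a row that also overlaps Tpcn1. Slc8b1 fell to 2.78 ± 0.195 FPKM at 24 h and 3.26 ± 0.258 at 48 h, against 4.90 ± 0.178 at 0 h (SD, n = 2 each), with limma adjusted p of 0.00042 and 0.0023. At 72 h it averaged 4.81 FPKM and was not called (limma adjusted p = 0.838).

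The plasma membrane calcium pumps, the other route by which cells extrude calcium, differed from each other. Atp2b1 had 15.3 and 17.5 FPKM in the 0 h pair, 15.4 and 15.4 in the 24 h pair, 15.5 and 17.3 in the 48 h pair, and 17.2 and 17.7 in the 72 h pair. Its libraries overlapped with those of 0 h at each time, and limma gave adjusted p of 0.448, 0.936 and 0.371. Atp2b4 fell to 2.10 ± 0.105 FPKM at 24 h and 2.55 ± 0.0169 at 48 h, against 4.97 ± 0.00253 at 0 h (limma adjusted p of 0.00038 and 0.0013). At 72 h its libraries stood at 3.27 and 4.96 FPKM and it was not called (limma adjusted p = 0.160). Atp2b2 and Atp2b3 failed the filter, with at most 0.319 FPKM. From 24 h on, the FPKM of Atp2b1 exceeded the mean of Slc8a1, whereas at 0 h that of Slc8a1 was higher.

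**Figure D5:**
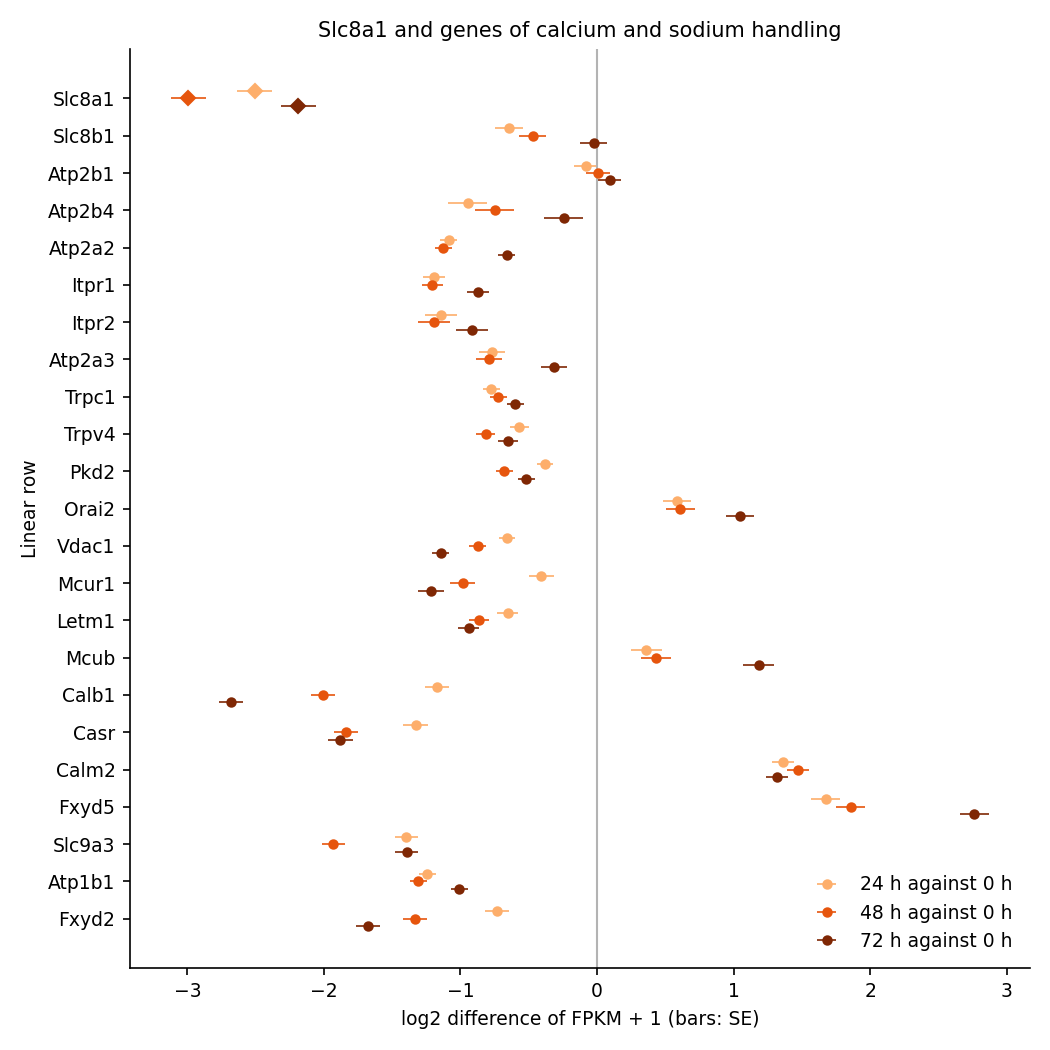
log2 difference of FPKM + 1 from 0 h (horizontal axis, bars give the SE) at 24, 48 and 72 h for the linear rows of Slc8a1 (diamonds, top) and 22 genes of calcium and sodium handling. Slc8a1 lies furthest left at 24 and 48 h, at -2.51 and -2.99, while Calm2, Fxyd5, Orai2 and Mcub lie right of 0.

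Genes of calcium and sodium handling were more often lower than higher. Of 75 genes in 7 lists, Slc8a1 not among them, 73 had a row and 52 were tested. Of the 75, 5 were also among the markers of the distal tubule used below. By limma with Benjamini-Hochberg adjustment over all rows, 33 fell and 7 rose at 24 h, 35 fell and 6 rose at 48 h, and 26 fell and 13 rose at 72 h. As background, 65.8% of all 10757 rows were called at 24 h (40.0% lower, 25.8% higher), 70.5% at 48 h (42.1% lower, 28.5% higher) and 70.0% at 72 h (32.4% lower, 37.6% higher). The lists' shares were 63.5% lower and 13.5% higher at 24 h, 67.3% lower and 11.5% higher at 48 h, and 50% lower and 25% higher at 72 h. Their median difference from 0 h was -0.44, -0.47 and -0.25 at the 3 times, against -0.12, -0.13 and 0.07 over all rows. The split of all rows depends on the scaling: after scaling to a common median, 3366 rows were called higher and 3629 lower at 24 h, and 3877 and 3783 at 48 h. Of the 52 tested genes, 7 had both 0 h libraries under 1 FPKM and passed the filter only through later libraries. Among the higher calls they made up 3 of 7 at 24 h, 3 of 6 at 48 h and 6 of 13 at 72 h, which the filter favours.

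Most tested pumps and release channels of the endoplasmic reticulum fell. Of 5 tested members 4 were lower and 0 higher at each time, and the other, the inositol trisphosphate receptor gene Itpr3, had limma adjusted p from 0.0825 to 0.854. The list's median was -1.08 at 24 h, -1.13 at 48 h and -0.66 at 72 h. Atp2a2, the calcium pump SERCA2 in a row that overlaps Anapc7, fell at all 3 times, with 155 ± 3.14 FPKM (0 h), 72.6 ± 4.17 (24 h), 70.5 ± 0.176 (48 h) and 97.7 ± 0.549 (72 h). Itpr1, a calcium release channel opened by inositol trisphosphate, likewise fell, with 86.2, 37.1, 36.8 and 46.6 FPKM. Its course had an r of 0.976 with that of Slc8a1 over the 8 libraries. Itpr2 and Atp2a3 also fell at each time, by 1.14 and 0.77 on the log2 scale at 24 h.

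Among the channels for calcium entry, 9 of 15 tested fell and 2 rose both at 24 h and 48 h, whereas at 72 h 6 fell and 6 rose. After scaling to a common median, 6 were lower and 2 higher at 24 h and likewise at 48 h. Before that scaling the genes called higher at 24 and 48 h were Trpv6 and Orai2, both under 1 FPKM in the 0 h pair. Cacna1c and Cacna1d, among those called higher at 72 h, were under 1 FPKM there too. The filter favours such rises, so the split at 72 h cannot be read as a shift of the list. Trpv4, a channel gated by cell swelling, fell to 15.2 ± 0.241 FPKM at 48 h, against 27.4 ± 0.227 at 0 h. Trpc1, in a row that also overlaps Pls1, fell to 23.1 FPKM at 48 h, against 38.7 at 0 h, and the polycystin gene Pkd2 fell to 21.8 at 48 h, against 35.5 at 0 h. Orai2, a pore subunit of store-operated entry, averaged 0.536 FPKM (0 h), 1.31 (24 h), 1.35 (48 h) and 2.17 (72 h), and was tested only because its later libraries passed the filter. For Trpv4, Trpc1, Pkd2 and Orai2 the libraries after cisplatin did not overlap with those of 0 h.

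Of 11 genes of mitochondrial calcium uptake, 6 fell and 1 rose at 24 h, 9 fell and 1 rose at 48 h, and 7 fell and 2 rose at 72 h. After scaling to a common median, 5 were lower and 2 higher at 24 h, where Vdac2 lost its call and Smdt1 gained one, and 7 lower and 1 higher at 48 h. Vdac1, the outer membrane channel in a row that overlaps 9530068E07Rik, fell at all 3 times, with 404 FPKM (0 h), 255 (24 h), 220.0 (48 h) and 182 (72 h). Letm1 and Mcur1, both of the inner membrane, fell to 17.6 and 8.08 FPKM at 72 h, against 34.8 and 20.1 at 0 h. The member called higher at all 3 times was Mcub, a subunit that lowers the conductance of the uniporter, with 0.400 FPKM (0 h), 0.798 (24 h), 0.897 (48 h) and 2.18 (72 h). It passed the filter only through 48 h library b and the 72 h pair, where it is high.

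The calcium buffers and sensors moved in both directions, with 6 of 9 lower and 2 higher both at 24 h and 48 h, whereas at 72 h 5 were lower and 3 higher. Calb1, the calbindin that shuttles calcium through distal tubule cells towards NCX1, fell at all 3 times, with 179 ± 11.3 FPKM (0 h), 78.9 ± 8.24 (24 h), 43.7 ± 1.98 (48 h) and 27.0 ± 1.10 (72 h). Unlike Slc8a1, it was lowest at 72 h. Casr, the calcium-sensing receptor, also fell, with 12.2, 4.25, 2.68 and 2.58 FPKM. Calm2, which encodes the calcium sensor calmodulin, rose at all 3 times, with 42.8 FPKM (0 h), 111 (24 h), 119.9 (48 h) and 108 (72 h). By contrast Calm3, also a calmodulin gene, fell to 55.6 FPKM at 24 h and 48.7 at 48 h, against 84.8 at 0 h. At 72 h Calm3 was not called (limma adjusted p = 0.192).

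Genes that set the sodium gradient were also more often lower than higher. Of 9 tested members 6 fell and 2 rose at 24 h, 5 fell and 1 rose at 48 h, and 4 fell and 2 rose at 72 h. The share lower was 66.7%, 55.6% and 44.4% at the 3 times, against 40.0%, 42.1% and 32.4% of all rows. The share higher was 22.2%, 11.1% and 22.2%, against 25.8%, 28.5% and 37.6%. The list's median was -0.54, -0.39 and 0.08, against -0.12, -0.13 and 0.07 over all rows, so at 72 h it lay near that of all rows. After scaling to a common median, 4 were lower and 3 higher at 48 h. Slc9a3, the apical sodium-proton exchanger NHE3 in a row that overlaps Exoc3, fell at all 3 times, with 33.4 FPKM (0 h), 12.0 (24 h), 8.01 (48 h) and 12.1 (72 h). Its course had an r of 0.985 with that of Slc8a1. Fxyd2, a pump subunit of the nephron, fell to 899.5 FPKM at 72 h, against 2879.7 at 0 h. The pump regulator gene Fxyd5 rose at all 3 times, with 3.78, 14.3, 16.4 and 31.5 FPKM. Atp1b1 also fell, but its row spans many other genes and cannot be read as that subunit alone. Cacna1d at 72 h and Vdac2 at 24 h had limma adjusted p of 0.0320 and 0.0205. Every other fall and rise named for these 5 lists had a limma adjusted p of at most 0.0182.

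Cell type markers moved at the same time. Summed over 12 proximal tubule markers, all with a row and none at 0, FPKM ranged from 6552 to 7072 (0 h), 2679 to 3036 (24 h), 1685 to 1736 (48 h) and 914 to 922 (72 h), so the labelled tissue carried its defining markers. Over 14 markers of the distal convoluted and connecting tubule, where NCX1 is best known, the sum was 3106 to 3353 (0 h), 1394 to 1656 (24 h), 830.3 to 1031 (48 h) and 727 to 743 (72 h). None of these was at 0 in all libraries, all 14 fell at 24 and 48 h, and 13 fell at 72 h. After scaling to a common median, 13 were lower at each time, with Trpm6 not called at 24 h and Trpv5 not called at 48 h. Klk1 and S100g made up 82.5% of the sum at 0 h. The Klk1 row overlaps Klk1b3, Klk1b4 and Klk1b5, and the S100g row overlaps Ctps2. Several other marker rows also overlap other protein-coding genes, among them those of Slc22a6, Pvalb, Wnk4, Kl and Kcnj1. Both sums were lowest at 72 h, but single markers differed. Of the 14, 8 had their lowest mean at 72 h, and Hsd11b2, Scnn1b and Scnn1g had it at 24 h. Pvalb, Trpm6 and Wnk4 had it at 48 h, as the linear row of Slc8a1 did. For Pvalb, Trpm6, Klhl3 and Trpv5 the libraries of the lowest time overlapped with those of another time. The lowest time of these genes is therefore not settled. The sum over the thick ascending limb markers, 6 with a row, had its lowest values at 48 h. It was 285 to 288 FPKM (0 h), 169 to 171 (24 h), 104 to 107 (48 h) and 143 to 144 (72 h). Slc12a1 made up most of it, with a mean of 193 FPKM at 0 h. The lowest mean was at 48 h for Slc12a1, Cldn16, Cldn19 and Sostdc1, at 24 h for Kcnj1 and at 72 h for Ptger3. For Cldn16, Cldn19, Kcnj1 and Ptger3 the libraries of the lowest time overlapped with those of another time. Their lowest time is not settled either. Sums of 8 smooth muscle and pericyte markers with a row stood at 61.7 and 62.0 FPKM at 72 h, against 20.5 and 25.4 at 0 h. Those of 8 endothelial markers were 196 and 203 at 72 h, against 91.3 and 93.9 at 0 h. Those of 6 macrophage and monocyte markers were 196 and 205, against 51.1 and 57.5, and those of 6 neutrophil markers 74.1 and 76.6, against 1.05 and 1.22. Collecting duct markers summed to 236 and 251 FPKM at 72 h, against 121 and 135 at 0 h, and podocyte markers to 65.8 and 66.1, against 29.0 and 33.4. Not all members of a sum rose. Of 5 collecting duct markers 3 were called higher at 72 h, Avpr2 was lower (limma adjusted p = 0.0185) and Aqp3 was not called (limma adjusted p = 0.468). Aqp2 averaged 96.7 FPKM at 72 h, against 33.2 at 0 h. Among the smooth muscle markers Acta2 averaged 24.3 FPKM, against 3.96 at 0 h, and Myh11 1.68, against 1.97. The part of any of these cell types in the Slc8a1 values was not tested.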

How the data were processed

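Per the file headers, the authors deposited FPKM values for gene rows. The deposited circRNA table holds whole-number counts of back-splice reads; 8 further columns of it were not used here. Per the submitters' processing notes, which give neither roles nor order, Bowtie 0.12.2, TopHat2, Cufflinks and mm10 were involved. The circRNA caller and counting by strand were not given in the sources used here. Ribosomal RNA was removed, per the labels' protocols, which name a small RNA library kit. Columns were assigned to time groups only.

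Symbols matched 19742 rows, and RefSeq spans (GRCm38.p6) assigned circRNAs to genes. Rows reaching 1 FPKM in 2 or more libraries were tested with limma 3.58.1 (R 4.3.3; trend, robust) on log2(FPKM + 1). circRNAs above 0 in at least 4 libraries were tested with edgeR 4.0.16 (quasi-likelihood, TMM, robust), with DESeq2 1.42.0 as an alternative. Each used 1 fit of all 8 libraries, with two-sided p-values adjusted by Benjamini-Hochberg per contrast and called under 0.05. Differences of the Slc8a1 circle were taken from log2 normalised counts, with an SE from the spread within groups, because edgeR's fit gives none. FPKM values give no depth, so that of the linear data is unknown. Both procedures were tested on simulated data.

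Slc8a1, the gene lists, the markers and the tests were chosen with earlier results of these data known. Named genes are all tested exchangers and plasma membrane pumps, up to 4 members of each other list by smallest p, the 5 rows and 5 circRNAs with the highest r, and neighbours. Of the genes this names, 1 is not reported here. Rows of Slc8b1, Atp2b4, Atp2a2, Itpr1, Trpc1, Vdac1, Mcur1, Letm1, Fxyd5, Slc9a3 and Atp1b1 reach more than 2000 bases past their gene. Marker rows that do so include those of Slc22a6, Klk1, Pvalb, Wnk4, Kl and Kcnj1.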

Additional observations from a re-analysis of the deposited data

How the results depend on the processing

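No paired analysis was possible because the columns carry letters that the labels do not tie to replicate numbers. Of 825 values recomputed under 18 alternatives, 766 kept to the limits set (1.5 times for a count, the spread between duplicates for a Slc8a1 value) and 59 moved further, 39 of them on leaving out a library; no cause was tested. Leaving out 1 library at a time, the Slc8a1 linear difference from 0 h ranged from -2.53 to -2.48 (24 h), -3.01 to -2.98 (48 h) and -2.42 to -1.96 (72 h). The circle ranged from -0.07 to 0.13 (0.0813 without 24 h library b), -0.20 to 0.077 and -1.10 to -0.90, so its sign at 24 and 48 h depended on the library, and the circle minus the linear row from 2.42 to 2.66, 2.796 to 3.09 and 0.95 to 1.40. circRNAs called higher and lower ranged from 9 to 20 and 6 to 12 at 24 h, 5 to 16 and 4 to 10 at 48 h, and 1 to 14 and 8 to 19 at 72 h. The lowest count of higher calls at 72 h came without 72 h library a and the highest without 24 h library b. With the same median in every library the linear difference at 48 h was -2.81. With circRNA totals alone as the scale, the circle stood at -0.87 at 72 h and 14 circRNAs were called higher there. DESeq2 called 6 circRNAs lower at 24 h and 7 higher at 48 h. A pair of alternatives was chosen after seeing the data. Without the Slc8a1 circle in the totals its difference at 72 h was -0.90. Over the 26 calcium gene rows that keep to their own gene, 4 were higher and 15 lower at 24 h, 15 lower at 48 h, and 7 higher and 13 lower at 72 h, fewer because fewer rows were counted. Back-splice depth limits low circRNAs: the median mean count was 2.38 reads.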
